A study of Mus musculus with 4 samples.

Results

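The fibrillar collagen and collagen crosslinking genes considered here are 10 genes: the collagen chain genes Col1a1, Col1a2, Col3a1, Col5a1, Col5a2, Col5a3 and Col11a1, and the lysyl oxidase genes Lox, Loxl1 and Loxl2. Their members on the array were every probe set that the array annotation gives to exactly 1 of these genes, which are 21 of 34945 such probe sets and cover 9 of the 10 genes. Both probe sets that match Loxl2 are also given to Gm21451, so Loxl2 has no member.

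RNA was measured in C2C12 cells, a mouse myoblast line that forms muscle fibres in culture. There were 2 cultures with a stably integrated pLKO.1 lentiviral vector that expressed a short hairpin RNA (shRNA) against Sfmbt1, the knockdown, and 2 with the same vector and a control shRNA, which the labels call both scrambled and luciferase-directed. Sfmbt1 codes for an MBT repeat protein of chromatin. All 4 cultures were grown in serum medium under puromycin selection, each was hybridised to 1 Affymetrix array, and the labels do not tell whether each had its own transduction, so the p-values measure the spread between these cultures.

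Fibrillar collagens are secreted as procollagen triple helices, trimmed of their end pieces outside the cell and packed side by side into fibrils. Types I and III form the bulk of the fibrils in the connective tissue of muscle, while types V and XI take part in starting fibrils and limiting their width. Lysyl oxidases are copper enzymes that oxidise lysine side chains of collagen and elastin, after which neighbouring molecules become covalently crosslinked.

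The median signal, in the linear units of the MAS5 algorithm, was 92.8 and 101.1 on the knockdown arrays and 97.8 and 102.7 on the control arrays. Background was set at the 95th percentile of 27 probe sets for bacterial controls and was 69.32 and 42.94 on the knockdown arrays and 49.14 and 53.22 on the control arrays. Sfmbt1 had a lower signal on both knockdown arrays in all 5 of its probe sets, and 1 of the 4 tested passed in limma. This was 1422894, at 17.4% of the control mean (adjusted p = 0.0219 in limma), with 1 of its knockdown arrays in the background range. The brightest, 1429749, was at 67.7% (adjusted p = 0.333), 1455412 at 69.2% (0.339) and 1422893 at 43.7% (0.0594), and these did not pass. The untested 1443853 was in the background range on all 4 arrays. Among 8 myoblast markers, all above background on every array, 0 passed in either direction in limma. At an unadjusted p under 0.05 in limma 1 was higher and 1 lower, against 1583 and 1959 of all 22893 tested probe sets. The summed signal of these markers was 15238 and 16285 in the knockdown and 14755 and 16813 in the control.

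Type I collagen RNA rose in the knockdown, with a larger log2 difference at the Col1a1 probe sets than at the Col1a2 probe sets. The type III and type V chains and the lysyl oxidases did not pass at their brightest probe sets. Of the 21 member probe sets 17 had enough signal to be tested, in 8 genes. A probe set was called when the Benjamini-Hochberg adjusted p of limma's moderated test over all 22893 tested probe sets lay under 0.05, and a gene was counted by its probe set with the highest mean signal. By that count 2 of 8 genes rose and 0 fell, against 1.02% and 1.15% of all 12866 genes tested. At an unadjusted p under 0.05 in limma 3 were higher and 1 lower, against 1583 and 1959 of all 22893 tested probe sets. This sets genes against probe sets, as do the unadjusted counts of all lists and marker sets. In an alternative fit with only the brightest probe set of each gene, 1015 genes were higher and 918 lower at that level. By probe set 4 of 17 rose and 1 fell, against 0.961% and 1.43% of all tested probe sets. The knockdown arrays lay above both control arrays in 12 of the 17 and below both in 4, against 21.6% and 24.0% of all tested probe sets. The genes were picked with earlier results of these data known, so these counts describe the list. The log2 differences below are of log2(signal + 16), knockdown minus control, which understates changes of dim probe sets. Their median was 0.16 over the 8 genes and 0.015 over all genes.

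**Figure D1:**
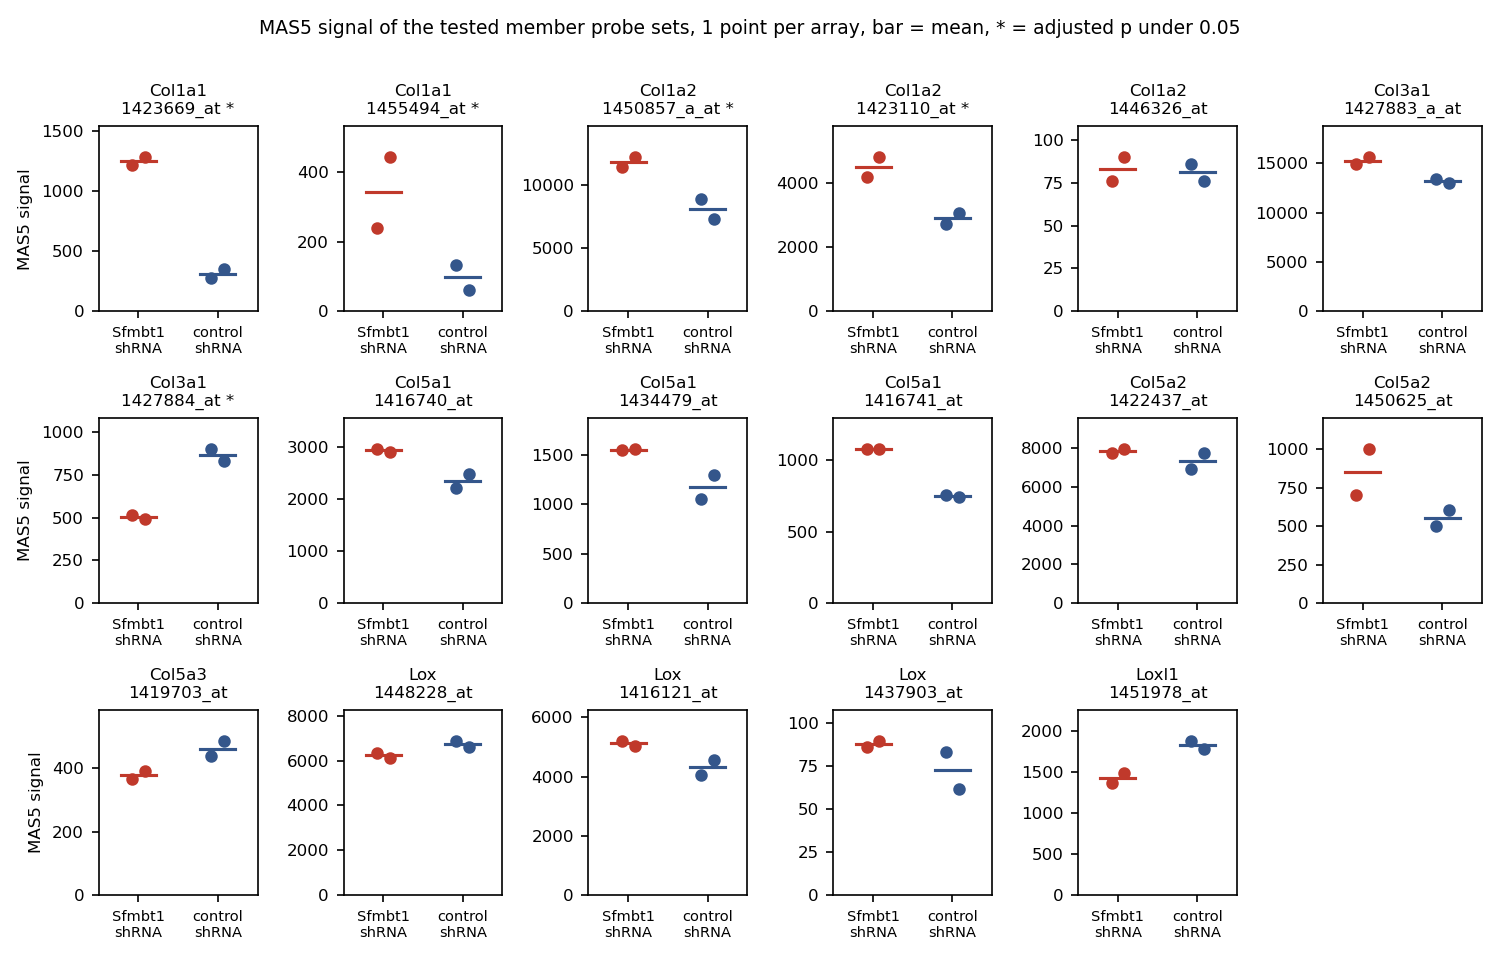
MAS5 signal (linear, from 0) on each array for the 17 tested member probe sets, 2 points per group with their mean as a bar. Each panel has its own axis because levels of different probe sets are not comparable. The 2 knockdown arrays lie above both control arrays in 12 panels, below both in 4, and among them in the dim Col1a2 probe set 1446326.

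Col1a1 encodes the alpha 1 chain of type I collagen, the main protein of tendon and bone and a major product of fibroblasts. Its probe set 1423669 gave 1221.6 and 1285.5 on the knockdown arrays, against 277.3 and 348.6 on the control arrays. The groups lay far apart, with the lower knockdown array well above the higher control array. The knockdown mean was 401% of the control mean and the log2 difference was 1.96 (SE 0.16, 95% interval 1.60 to 2.31, adjusted p = 3.88e-04), the 18th highest among the 22893 probe sets tested. A dimmer probe set, 1455494, gave 239.6 and 442.7 in the knockdown and 132.0 and 61.9 in the control, a rise by 1.67 log2 units (SE 0.35, adjusted p = 0.0324). Its arrays scattered more in both groups, yet the groups did not overlap. Both probe sets therefore passed in the same direction. With an array left out the log2 difference of 1423669 lay between 1.80 and 2.11. Among the alternative settings that kept all 4 arrays it lost its call only without the variance trend (adjusted p = 0.138 in limma). In that fit 0 probe sets passed and 2913 had an unadjusted p under 0.05. Probe set 1455494 lost its call in 5 of the settings that kept all 4 arrays, with adjusted p-values between 0.0551 and 0.269 there. Its log2 difference lay between 1.21 and 2.14 with an array left out.

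Col1a2 encodes the alpha 2 chain, which pairs with alpha 1 chains in the type I heterotrimer. The brightest probe set, 1450857, gave 11431.5 and 12253.0 in the knockdown and 8880.4 and 7361.1 in the control. Both knockdown arrays were above both control arrays, and the knockdown mean was 146% of the control mean (log2 difference 0.55, SE 0.12, 95% interval 0.28 to 0.82, adjusted p = 0.0423). Probe set 1423110 gave 4178.9 and 4805.2 in the knockdown, against 2729.9 and 3059.8 in the control, and rose by 0.63 log2 units (SE 0.13, adjusted p = 0.0268). The third probe set, 1446326, was dim at 76.0 and 90.1 in the knockdown and 86.3 and 76.3 in the control. There the groups overlapped, and with a log2 difference of 0.02 its 95% interval of -0.79 to 0.84 includes the size seen in the other two. With an array left out the log2 difference lay between 0.41 and 0.68 for 1450857 and between 0.53 and 0.73 for 1423110. Such a fit leaves 1 array in a group, so its adjusted p is not comparable with that from all 4 arrays. Without the filter on dim probe sets neither passed (adjusted p = 0.211 and 0.120 in limma).

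The brightest probe sets of Col1a1 and Col1a2 moved by unequal amounts within the same arrays. The log2 ratio of Col1a1 (1423669) over Col1a2 (1450857) was -3.21 and -3.24 on the knockdown arrays, against -4.92 and -4.34 on the control arrays. The ratio's level has no meaning across probe sets. Its shift of 1.41 was larger than the gap between replicates, 0.03 in the knockdown and 0.58 in the control. The same kind of ratio between 2 probe sets of 1 gene, Col3a1, shifted by 0.98, with gaps of 0.14 and 0.06. Such a shift can thus arise between probe sets of 1 gene, so it cannot decide whether the RNA of the 2 chains changed by unequal amounts. An exact two-sided permutation test of 2 against 2 arrays cannot give a p under 0.333.

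Col3a1 encodes the chain of type III collagen, which co-assembles with type I in fibrils of soft tissue. Its probe sets disagreed. The bright probe set 1427883 gave 14870.6 and 15624.4 in the knockdown and 13414.0 and 12970.5 in the control, with a log2 difference of 0.21 (SE 0.11, 95% interval -0.03 to 0.45, adjusted p = 0.395). Probe set 1427884 gave 515.9 and 490.7 in the knockdown, against 903.2 and 834.3 in the control. It fell to 57.9% of the control mean in the knockdown (log2 difference -0.77, SE 0.15, adjusted p = 0.0243). In neither probe set did the groups overlap, in opposite directions. Within each array the log2 ratio of 1427883 over 1427884 was 4.81 and 4.95 in the knockdown and 3.87 and 3.93 in the control, a shift of 0.98 against replicate gaps of 0.14 and 0.06. The log2 difference of 1427884 lay between -0.82 and -0.71 with an array left out. Its call ended without the filter on dim probe sets (adjusted p = 0.0882 in limma). Both probe sets are annotated from the same expressed sequence, and no direction is given for the gene.

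**Figure D2:**
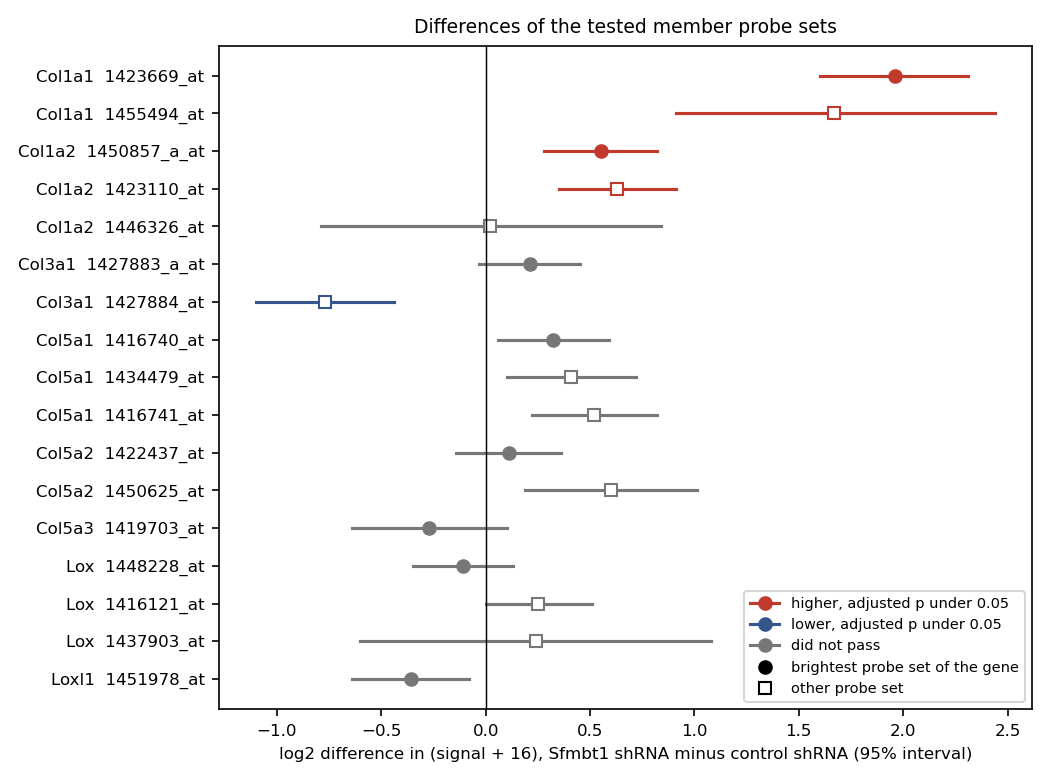
Log2 difference in (signal + 16), Sfmbt1 shRNA minus control shRNA, with its 95% interval from limma for each of the 17 tested member probe sets. Filled circles are the brightest probe set of a gene and open squares its other probe sets. The Col1a1 probe sets lie at 1.96 and 1.67, the called Col1a2 probe sets at 0.55 and 0.63, and the Col3a1 pair at 0.21 and -0.77.

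Promoter sequence is shown for Col1a2, which rose, for Col3a1, whose probe sets split, and for Col5a3, whose difference was negative, so that the upstream regions of members with unlike differences can be compared. Each line is the 250 bases before the RefSeq start on the strand of the gene (GRCm38.p6): chr6:4505368-4505617, plus strand, for Col1a2, chr1:45311288-45311537, plus strand, for Col3a1 and chr9:20815068-20815317, minus strand, for Col5a3. Capitals mark CCAAT and TATAAA, searched on both strands.
Col1a2: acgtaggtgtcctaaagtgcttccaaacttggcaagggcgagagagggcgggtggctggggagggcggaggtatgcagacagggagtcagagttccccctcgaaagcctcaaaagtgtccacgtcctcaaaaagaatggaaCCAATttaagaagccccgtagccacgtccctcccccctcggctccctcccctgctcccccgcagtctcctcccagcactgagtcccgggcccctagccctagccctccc
Col3a1: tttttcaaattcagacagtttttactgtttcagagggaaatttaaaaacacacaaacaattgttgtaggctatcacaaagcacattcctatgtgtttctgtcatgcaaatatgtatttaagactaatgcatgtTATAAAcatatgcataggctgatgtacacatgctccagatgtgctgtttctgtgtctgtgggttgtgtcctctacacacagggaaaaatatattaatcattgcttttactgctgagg
Col5a3: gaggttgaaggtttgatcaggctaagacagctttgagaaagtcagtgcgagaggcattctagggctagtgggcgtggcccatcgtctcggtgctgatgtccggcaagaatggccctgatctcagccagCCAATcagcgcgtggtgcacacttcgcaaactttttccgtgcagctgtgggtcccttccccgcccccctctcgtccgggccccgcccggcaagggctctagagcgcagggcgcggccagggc

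CCAAT, the box that the factor NF-Y is known to bind, begins 109 bases before the start in Col1a2 and 122 bases before it in Col5a3. Col3a1 has no CCAAT in this window and has TATAAA beginning 117 bases before the start. Among 32851 promoter windows of this length in the table, 33.8% hold CCAAT on either strand and 12.4% hold TATAAA on either strand. GGGCGG, searched on both strands, occurs 2 times each in the Col1a2 and Col5a3 windows and in 32.7% of all windows. The motifs do not overlap each other in these sequences, and both Col1a2, which rose, and Col5a3, with a negative difference, hold CCAAT and GGGCGG. The RefSeq promoter table also holds Col5a1 and Col11a1. No window was found there for Col1a1, Col5a2, Loxl1 and Loxl2. Promoters on chromosome 18, which carries Lox, were left out of this lookup, so Lox was not searched.

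None of the type V probe sets passed, with log2 differences between -0.27 and 0.60 among those tested. Col5a1 encodes the alpha 1 chain of type V collagen, which regulates fibril initiation. Probe set 1416740 gave 2956.4 and 2907.2 in the knockdown, against 2208.8 and 2479.1 in the control (log2 difference 0.32, SE 0.12, adjusted p = 0.226). The other two, 1434479 and 1416741, stood at 133% and 144% of the control mean, with log2 differences of 0.41 and 0.52 and adjusted p-values of 0.184 and 0.0799. In all 3 the knockdown arrays lay above the control arrays and the unadjusted 95% intervals lay above 0. Probe set 1416741 passed when only the brightest 40% of probe sets were tested (adjusted p = 0.0415) and with each array centred on its median (0.0383).

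Col5a2 encodes the alpha 2 chain of type V collagen, and its gene is the direct neighbour of Col3a1 on chromosome 1. Probe set 1422437 gave 7787.3 and 7972.7 in the knockdown, against 6915.7 and 7753.1 in the control (log2 difference 0.11, 95% interval -0.14 to 0.36, adjusted p = 0.725). The groups were separated by a narrow margin there. Probe set 1450625 gave 703.8 and 1002.9 in the knockdown and 500.7 and 604.3 in the control (log2 difference 0.60, SE 0.19, adjusted p = 0.137). The difference varied with the array left out. It was 0.85 without knockdown replicate 1, 0.35 without knockdown replicate 2, 0.47 without control replicate 1 and 0.73 without control replicate 2.

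Col5a3 encodes the less widespread alpha 3 chain of type V. Its brighter probe set, 1419703, gave 367.3 and 393.5 in the knockdown, against 438.5 and 487.4 in the control (log2 difference -0.27, 95% interval -0.64 to 0.10, adjusted p = 0.484). The knockdown arrays were the lower pair, by less than the test could separate. Probe set 1425984 was not tested and lay in the background range on all 4 arrays, at 5.8 and 14.4 in the knockdown and 19.6 and 52.7 in the control.

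Col11a1 encodes the alpha 1 chain of type XI collagen, best known from cartilage. Neither of its probe sets was bright enough to be tested. Probe set 1418599 gave 9.9 and 103.5 in the knockdown and 54.2 and 7.3 in the control, so that 1 array of each group was above background. Probe set 1449154 stayed between 1.7 and 11.6 on the 4 arrays, all in the background range. No fold is given for this gene.

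Among the crosslinking enzymes, Lox encodes lysyl oxidase itself, the main crosslinking enzyme of fibrillar collagen. Probe set 1448228 gave 6323.4 and 6137.8 in the knockdown, against 6885.0 and 6588.2 in the control (log2 difference -0.11, 95% interval -0.35 to 0.13, adjusted p = 0.691). Probe set 1416121 gave 5210.3 and 5051.5 in the knockdown and 4055.5 and 4566.1 in the control (log2 difference 0.25, SE 0.12, adjusted p = 0.332). Both are bright and neither had overlapping groups, but they pointed in opposite directions. Their log2 ratio within an array, 1416121 over 1448228, was -0.28 on both knockdown arrays, against -0.76 and -0.53 on the control arrays. The third Lox probe set, 1437903, was dim at 86.1 and 89.6 in the knockdown and 83.4 and 61.4 in the control (adjusted p = 0.826). Differences larger than 0.51 log2 units in either direction lay outside the unadjusted 95% intervals of both bright probe sets.

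Loxl1 encodes a lysyl oxidase-like enzyme known for crosslinking elastin. Probe set 1451978 gave 1369.6 and 1487.9 in the knockdown, against 1883.3 and 1786.1 in the control. Both knockdown arrays were below both control arrays, at 77.9% of the control mean and the difference did not pass (log2 -0.36, SE 0.13, 95% interval -0.64 to -0.08, adjusted p = 0.196). The second probe set, 1436063, was too dim to be tested, at 38.3 and 69.1 in the knockdown and 69.5 and 43.1 in the control.

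Loxl2 encodes another member of the family, with scavenger receptor domains. The probe sets that the annotation gives to both it and Gm21451 cannot be assigned to it. Probe set 1431004 gave 326.8 and 411.3 in the knockdown, against 280.6 and 298.1 in the control, and 1452436 gave 121.3 and 213.4 in the knockdown and 108.3 and 198.3 in the control.

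**Figure D3:**
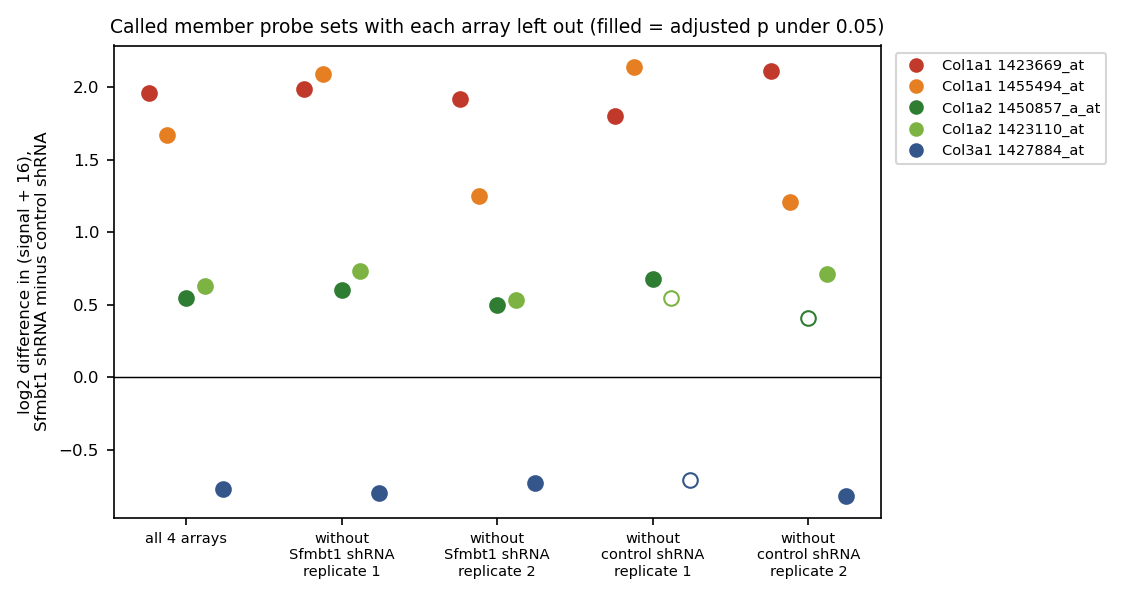
Log2 difference in (signal + 16), Sfmbt1 shRNA minus control shRNA, of the 5 called member probe sets with all 4 arrays and with each array left out, filled where the adjusted p is under 0.05. The Col1a1 probe set 1423669 stays between 1.80 and 2.11, the Col1a2 probe sets between 0.41 and 0.73, and the Col3a1 probe set between -0.82 and -0.71. A left-out array leaves 1 array in a group, so the fill of those points is not comparable with that for all 4 arrays.

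Beyond the members, 7 lists cover the modification, export and trimming of procollagen, the other fibrillar collagens and lysyl oxidases, fibril surfaces, elastic fibres, collagen receptors and collagen breakdown. Of their 104 genes 74 were tested, 3 rose and 1 fell, against 1.02% and 1.15% of all genes tested. A positive difference was found in 51 of the 74, against 52.2% of all genes, and the median was 0.14 log2 units, against 0.015. In the list of modification and folding, which holds the prolyl and lysyl hydroxylases and the collagen chaperone gene Serpinh1, 0 of 18 tested genes passed at the adjusted threshold in limma, the median was 0.19 and 16 differences were positive. At an unadjusted p under 0.05 in limma 4 were higher and 0 lower, against 1583 and 1959 of all 22893 tested probe sets. Its smallest p belonged to P4ha1, the catalytic subunit of the prolyl hydroxylase that stabilises the triple helix, at 1630.3 and 1553.8 in the knockdown, against 952.5 and 1253.1 in the control (log2 difference 0.54, adjusted p = 0.1), with -0.12 in its other probe set.

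Of 9 tested genes of procollagen export and propeptide processing 1 rose and 0 fell, against 1.02% and 1.15% of all genes tested, with a median of 0.20. At an unadjusted p under 0.05 in limma 3 were higher and 0 lower, against 1583 and 1959 of all 22893 tested probe sets. Pcolce2, which encodes an enhancer of the proteinase that removes the C-terminal propeptide, gave 4194.1 and 4836.8 in the knockdown, against 2901.8 and 2970.2 in the control (log2 difference 0.61, SE 0.12, adjusted p = 0.0257). Bmp1, that proteinase itself, differed by 0.53 (adjusted p = 0.0803). With an array left out the log2 difference of Pcolce2 lay between 0.51 and 0.72. Pcolce2 did not pass without the filter on dim probe sets (adjusted p = 0.116 in limma) or without the variance trend (0.282).

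Among 16 tested genes of fibril assembly and fibril surfaces 2 rose and 0 fell, against 1.02% and 1.15% of all genes tested, with a median of 0.25. At an unadjusted p under 0.05 in limma 5 were higher and 0 lower, against 1583 and 1959 of all 22893 tested probe sets. Col12a1, a collagen that sits on the surface of type I fibrils, gave 1156.2 and 1226.1 in the knockdown and 788.8 and 661.0 in the control (log2 difference 0.71, SE 0.15, adjusted p = 0.0316), and its second tested probe set rose by 0.84 (adjusted p = 0.0250). Ogn, which encodes the small leucine-rich proteoglycan osteoglycin, gave 3355.8 and 2846.3 in the knockdown, against 1955.5 and 1940.7 in the control (log2 difference 0.66, SE 0.13, adjusted p = 0.0236), with 0.65 in its other probe set. Both knockdown arrays were above both control arrays in each of these probe sets. With an array left out the log2 difference at the brightest probe set lay between 0.54 and 0.78 for Ogn and between 0.58 and 0.83 for Col12a1. Without the filter on dim probe sets neither of these brightest probe sets passed (adjusted p = 0.102 and 0.112 in limma).

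In the list of collagen-degrading enzymes, which also holds their TIMP inhibitors, 1 of 9 tested genes fell and 0 rose, against 1.15% and 1.02% of all genes tested, 2 had a positive difference and the median was -0.18. At an unadjusted p under 0.05 in limma 4 were lower and 1 higher, against 1959 and 1583 of all 22893 tested probe sets. Mmp14, a membrane-bound metalloproteinase that cleaves fibrillar collagen, gave 2154.9 and 2345.1 in the knockdown, against 4278.0 and 3949.1 in the control (log2 difference -0.87, SE 0.12, adjusted p = 0.00428). Its other probe sets fell too, with log2 differences of -1.29 and -1.75.

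No gene of the remaining lists passed at the adjusted threshold in limma. Of all 22893 tested probe sets 1583 were higher and 1959 lower at an unadjusted p under 0.05 in limma. Among 5 tested genes of the other fibrillar collagens and lysyl oxidases the median was 0.26, 2 were higher and 1 lower at an unadjusted p under 0.05, and the smallest p was that of Col27a1, a fibrillar collagen of cartilage, at 247.2 and 362.9 in the knockdown, against 157.3 and 132.6 in the control (log2 difference 0.98, adjusted p = 0.0645). Its other tested probe set differed by -0.38 (adjusted p = 0.825), and the mean of the gene's probe sets by 0.30 (adjusted p = 0.776). Among 11 elastic fibre genes the median was 0.01, 1 was higher and 1 lower at that unadjusted level, and Fbln5, an organiser of elastic fibres, had a log2 difference of 0.74 (adjusted p = 0.106). Among 6 collagen receptor genes the median was 0.11, 0 were higher and 1 lower at that level, and this was Ddr2, a receptor tyrosine kinase that binds fibrillar collagen, with a log2 difference of -0.41 (adjusted p = 0.173).

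**Figure D4:**
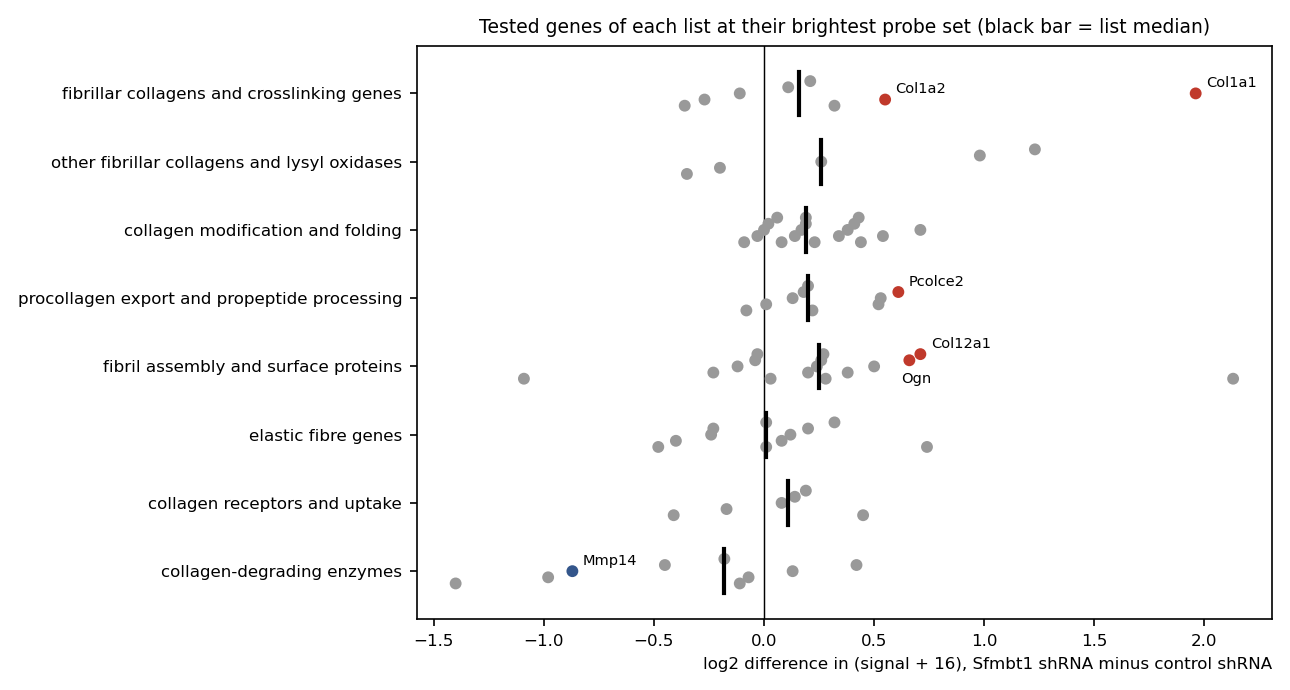
Log2 difference in (signal + 16), Sfmbt1 shRNA minus control shRNA, of the tested genes at their brightest probe set, 1 row per list, with called genes in red (higher) or blue (lower) and named, and list medians as black bars. The medians lie between -0.18 and 0.26, and Col1a1 at 1.96 is the called gene farthest from 0.

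Markers of muscle differentiation rose on the same arrays. Of 11 such genes 10 rose and 0 fell, against 1.02% and 1.15% of all genes tested. Their summed signals were 10020 and 10554 in the knockdown, against 2257 and 2014 in the control. Of 10 fibroblast markers 9 had a probe set, 5 were above background on all arrays and 5 were tested, 0 passed in either direction, and the sum was 1805 and 1730 in the knockdown, against 1334 and 1578 in the control. All 5 tested fibroblast markers had a positive difference, against 52.2% of all genes tested, with a median of 0.20. The smallest was that of Pdgfra, at 136.6 and 120.8 in the knockdown and 141.8 and 107.9 in the control (log2 difference 0.05, adjusted p = 0.962 in limma). The largest was that of Cd34, at 986.1 and 1064.1 in the knockdown, against 702.3 and 766.7 in the control (log2 difference 0.47, adjusted p = 0.123 in limma). Dcn, Lum and Dpt stand in both the fibroblast and the fibril list. Of 6 smooth muscle and myofibroblast markers 2 were tested, 0 rose and 1 fell, against 1.02% and 1.15% of all genes tested. The marker that fell was Tagln, at 910.1 and 961.0 in the knockdown, against 1402.4 and 1564.9 in the control (adjusted p = 0.0315 in limma). The other, Acta2, gave 22679.0 and 22725.2 in the knockdown, against 22264.8 and 24130.7 in the control (log2 difference -0.03, adjusted p = 0.934), and the sum over the list was 23674 and 23826 in the knockdown, against 23822 and 25789 in the control. Cnn1, Myh11 and Lmod1 were in the background range on every array. Of 9 bone and cartilage markers 5 were tested and 0 passed, with sums of 1026 and 1104 in the knockdown, against 1333 and 1239 in the control. Of 7 endothelial and blood markers 5 were tested and 0 passed, with sums of 854 and 1036 in the knockdown, against 1040 and 1079 in the control, and Pecam1 and Ptprc were in the background range on every array. At an unadjusted p under 0.05 in limma 1 fibroblast marker was higher, 1 bone and cartilage marker was lower, and 0 endothelial and blood markers differed. Of all 22893 tested probe sets 1583 were higher and 1959 lower at that level. The part of differentiation or of other cells in the collagen differences was not tested, and in bulk RNA a change in the number of cells of a type and in the RNA per cell cannot be told apart.

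The balance of calls depended on scaling. As deposited, 220 probe sets were higher and 328 lower, so that 40.1% of calls were higher, against 54.6% with each array centred on its median (401 higher and 333 lower). The 5 member probe sets called as deposited kept their sign under both scalings tried. With median centring Col1a1 1455494 lost its call (adjusted p = 0.0551), and with quantile normalization it (0.0616) and Col1a2 1450857 (0.0708) did.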

How the data were processed

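The authors deposited linear intensity values per probe set, made, per the submitters' processing notes, by the MAS5 algorithm in GCOS. The scaling between arrays is not stated, and the values were used as deposited. Of 45101 probe sets, 34945 have 1 gene in the array annotation, 932 several and 9160 none in that table, and 64 are controls. Symbols were checked against RefSeq (GRCm38.p6) through gene identifiers, which matched for 34741 probe sets. Signals were transformed as log2(signal + 16), and the brightest 60% of probe sets were kept (signal of about 57.3 or more), 22893 with 1 gene. Groups were compared with limma 3.58.1 in R 4.3.3 (lmFit, eBayes with a variance trend, 2 residual and 9.6 prior degrees of freedom, Benjamini-Hochberg adjustment). The number of arrays limits the precision. The fit was also run on simulated arrays, with a slightly different filter and independent normal noise whose spread followed a smooth trend in signal. Such data cannot test whether that trend holds for these arrays. Text names every member, called genes of each list (at most the 4 with the smallest p) or the gene with the smallest p, and Tagln as the only called gene of its list. Other genes were named after their values were seen. Members and lists were chosen with earlier results of these data known. There were 15 alternatives, on pseudocount, filter, scaling, trend, unit tested, shared-transcript probe sets, replicate block and each array left out. Promoter sequences are from RefSeq, GRCm38.p6.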

Additional observations from a re-analysis of the deposited data

Results flagged for a closer look

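A probe set outside the comparison, 1431004, which the annotation gives to both Gm21451 and Loxl2, was higher on both knockdown arrays (326.8 and 411.3) than on the control arrays (280.6 and 298.1), a log2 difference of 0.33 in (signal + 16). Both knockdown arrays lay above both control arrays in 21.6% of all tested probe sets. The other probe set given to both genes, 1452436, had overlapping groups and a log2 difference of 0.12. Neither difference was tested, since no gene is assigned to either probe set alone.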

How the results depend on the processing

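Both Col1a1 probe sets kept a positive difference under every alternative in which they were tested, 15 for 1423669 and 13 for 1455494. The call of 1423669 was lost without the variance trend. That of 1455494 was lost without the filter, with median centring, with quantile normalization, without the trend and with the replicate block. Of 233 alternative values for member probe sets 207 kept direction and side of the threshold, 17 lost the call, 5 gained it and 4 changed sign. Counts here that include fits with an array left out rest partly on adjusted p-values not comparable with those from all 4 arrays. The sign changes were in Col1a2 1446326 (-0.05 without control replicate 2, -0.08 without knockdown replicate 2) and, with the mean of a gene's probe sets, in Col3a1 (-0.28) and Lox (0.13), none of them called. The mean of a gene's probe sets mixes probe sets that disagree. The count of member genes higher, 2 of 8, was 1 without the filter, with quantile normalization and with gene means, 0 without the variance trend, and 1 to 2 with an array left out; member genes lower, 0, was 1 without shared-transcript probe sets, where Col3a1 1427884 is the brightest left, and 0 with each array left out. Over all probe sets the 220 higher and 328 lower became 22 and 41 without the filter, 359 and 591 with the brightest 40%, 0 and 0 without the trend, 97 and 120 with gene means, and 379 and 478 with the replicate block; 401 were higher with median centring, 132 without shared-transcript probe sets, and 207 lower with 1 probe set a gene. With an array left out they ranged from 126 to 730 higher and 171 to 1040 lower. For pathway genes the 3 higher became 0 without the filter, 0 without the trend, 8 with the brightest 40%, 8 with median centring, 6 with quantile normalization, 5 with 1 probe set a gene, 8 with the replicate block, and 2 to 10 with an array left out; the 1 lower became 3 with quantile normalization, 0 without the trend and 1 to 3 with an array left out. The labels do not tell whether same-numbered arrays share more than their number. Their deviations correlated at 0.00951 across probe sets, which cannot decide this. With the block, Col1a1 1455494 did not pass (adjusted p = 0.0601) and Col5a1 1416741 (0.0454) and Col5a2 1450625 (0.0481) did. The causes were not tested. Signal near background limits what can be said of Col11a1 and the dimmer probe sets.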

Other observations

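Postn, which encodes the matricellular protein periostin that binds collagen, had the highest difference among the tested genes of fibril assembly, at 402.2 and 499.2 in the knockdown, against 32.6 and 215.6 in the control (log2 difference 2.13, adjusted p = 0.0580 in limma). The first control array was in the background range and the control arrays scattered widely. Col11a2, a chain of type XI collagen, gave 177.7 and 167.6 in the knockdown, against 72.4 and 57.4 in the control (log2 difference 1.23, adjusted p = 0.0715 in limma). Both genes were named after their values were seen, and neither passed.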
